A study of Arabidopsis thaliana with 12 samples.

Results

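The genes described here belong to families that loosen or build the plant cell wall, and they were followed in Arabidopsis thaliana seedlings that lacked either the hormone gibberellin (GA) or its receptors. They were chosen by symbol: a probe set was taken when the platform's names table pairs it with 1 gene whose symbol is EXPA, EXPB, EXLA, EXLB, XTH, CESA, CSL, PME, GAUT, FLA or AGP with its number. This gave 37 probe sets for 37 genes, out of 22746 probe sets that are not controls and 13513 that carry 1 symbol. They comprise 10 alpha-expansins (EXPA), 4 beta-expansins (EXPB), 3 expansin-like A genes (EXLA), 1 expansin-like B gene (EXLB), 9 xyloglucan endotransglucosylase/hydrolase genes (XTH), 8 cellulose synthase-like genes (CSL), 1 galacturonosyltransferase-family gene (GAUT15) and 1 pectin methylesterase gene (PME61). No CESA, FLA or AGP gene was selected, and those families are not analysed here. A further 2 probe sets that name several genes, of which at least 1 has such a symbol, were left out by the rule.

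Growing plant cells enlarge when the wall yields to turgor. Alpha- and beta-expansins loosen the wall without cutting its polymers, and XTH enzymes cut and rejoin xyloglucan chains. How expansin-like proteins act is not assumed here. Of the CSL proteins, CSLA proteins of the Golgi make mannans and CSLC proteins of the Golgi make the glucan backbone of xyloglucan. Mannans and xyloglucan are hemicelluloses. GAUT proteins are linked to pectin synthesis and pectin methylesterases remove methyl groups from pectin. GA promotes elongation of seedlings: it binds GID1 receptors, and the complex brings about the destruction of the DELLA repressors.

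All seedlings were 7 days old and grown in light on medium. The ga-1 mutant (SALK_109115) is impaired in GA biosynthesis. The other line, gid1 for short, combines gid1a-1, gid1b-1 and gid1c-2 and so has all of its GA receptor genes mutated. Both lines received either a mock treatment or GA3, a gibberellin, at 100 µM, and were harvested after 1 h. Each of the 4 groups has 3 Affymetrix ATH1 arrays, which the submitters call independent biological replicates. No wild type is among the groups, so every group carries a GA defect, and each mutant is represented by a single genotype. RNA came from whole seedlings, in which fewer cells of a type and less RNA per cell cannot be told apart.

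The values are MAS5 signals, a linear measure of probe set brightness, with array medians between 169.7 and 188.8. Precision is limited by having 3 arrays in a group. GID1A and GID1B, 2 of the mutated receptor genes, had mean signals of 679 and 514 in ga-1 mock and of 60.7 and 62.9 in gid1 mock. With GA3 their means were 213 and 80.0 in ga-1 and 60.1 and 94.5 in gid1, and the GID1B arrays of the mutants overlapped there. XERICO, taken as a check of the treatment, had means of 1943 in ga-1 mock and 436 in ga-1 with GA3. In gid1 its means were 2085 in mock and 1850 with GA3. The green-tissue marker RCA and the root marker PYK10, the single measured genes of their lists, had means of at least 22154 and 11635 in every group. The pollen marker AtVEX1 lay below the low-value limit. Of 22 seed and germination markers, 8 had a named probe set, and their lowest value was 1.6. Their summed signal was 433.8 to 2778.2 in ga-1 mock, 535.5 to 698 in ga-1 with GA3, 290.4 to 632.3 in gid1 mock and 1861.9 to 4345.3 in gid1 with GA3. The high summed signal thus lay in all of the gid1 arrays with GA3 and in ga-1 mock replicate 2. Most of it came from AT3G02480, with 1059.1, 3039.7 and 1810.1 in those gid1 arrays and 1714.4 in that ga-1 array. ICL, PAP85 and LEA18 were also higher in every gid1 array with GA3 than in every gid1 mock array. The other measured seed markers, among them AT4G36700, overlapped between these groups. Of the 4 seed markers that were tested, ICL and AT3G02480 were called higher in gid1 with GA3 than in ga-1 with GA3 (limma adjusted p = 0.045 and 0.012). PAP85 (log2 difference 1.61, adjusted p = 0.30) and AT4G36700 (-0.17, adjusted p = 0.91) were not called there. AT3G02480 was also called in the difference of GA3 responses (adjusted p = 0.018). Of all tested probe sets, 1.26% and 0.22% were called in these comparisons. The marker list was chosen with earlier results of these data known, so nothing is read from these counts.

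Of the 37 genes, 28 had a mean log2 signal at or above the 30th percentile of all probe sets (5.55) and were tested, and 9 were too dim. The tested genes were 8 EXPA, 3 EXPB, 2 EXLA, EXLB1, 6 XTH, 7 CSL and GAUT15. EXPB2 was the tested gene nearest the limit, with a mean log2 signal of 5.65, and EXLA3 the nearest below it, with 5.48. Differences are on the log2 scale, where 1 is a doubling, and p-values come from limma, with Benjamini-Hochberg adjustment over all 15922 tested probe sets and a threshold of 0.05.

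**Figure D1:**
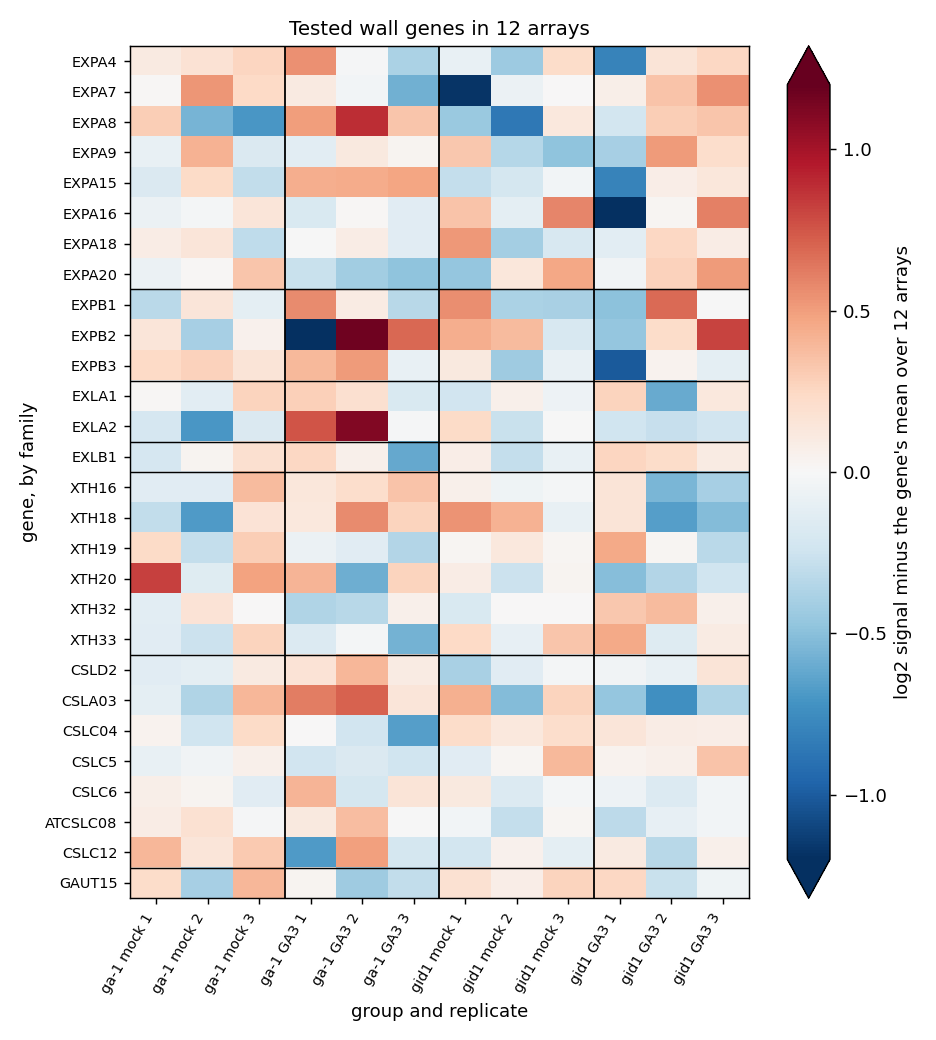
Log2 signal of the 28 tested wall genes (rows, grouped by family) in each of the 12 arrays (columns), as the difference from the gene's own mean over the 12 arrays; red is above and blue below that mean, and the colour scale ends at 1.2 either way. Within their own rows, EXLA2 and CSLA03 are reddest in ga-1 with GA3 replicates 1 and 2. CSLA03 is also red in ga-1 mock replicate 3 and in gid1 mock replicates 1 and 3. Several expansins are blue in gid1 with GA3 replicate 1.

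The first comparison asked which of these genes responded to GA3 within 1 h in GA-deficient ga-1 seedlings. None of the 28 tested genes passed the threshold, while 129 of all 15922 probe sets (0.81%) did. The smallest adjusted p was that of EXLA2, 0.11, with a difference of 0.98. An unadjusted p under 0.05 was found for 6 of the 28 (21.4%), against 7.83% of all tested probe sets. Of these 6, EXLA2, EXPA8, EXPA15, XTH18 and CSLA03 had higher means with GA3, which is 5 of the 28 against 3.05% of all probe sets, and EXPA20 a lower mean, against 4.78% of all. The groups of arrays did not overlap for 5 of the 28 (17.9%), against 14% of all. The median difference was -0.08 over the 28 genes and 0.01 over all tested probe sets, with 13 genes on the higher side and 15 on the lower; of all probe sets 51.9% were on the higher side. The sign of that median was not stable: it was 0.086 without ga-1 GA3 replicate 3 and 0.049 with no low-value filter.

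Among the alpha-expansins, EXPA8 had signals of 83.3, 46.1 and 41.9 in ga-1 mock and 96.0, 125.6 and 85.5 in ga-1 with GA3. The groups do not overlap, but the lowest GA3 array is only just above the highest mock array. Its mean was 57.1 ± 22.8 in mock and 102 ± 20.8 with GA3 (SD, n = 3), a difference of 0.89 ± 0.38 (SE; limma adjusted p = 0.56). In gid1 it had 49.8, 37.3 and 73.8 in mock and 58.2, 83.2 and 85.6 with GA3, groups that overlap, with a difference of 0.53 ± 0.38 (SE). The difference between these responses, 0.36, had a 95% interval from -0.77 to 1.49, which includes 0 and reaches past 2-fold.

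EXPA15 had 431.1, 567.8 and 394.4 in ga-1 mock and 656.4, 661.6 and 671.7 in ga-1 with GA3. The GA3 arrays lie close together and above all mock arrays. The difference was 0.53 ± 0.21 (SE), or 1.45-fold, and did not pass the threshold (adjusted p = 0.49). In gid1 the values were 397.9, 420.2 and 475.7 in mock and 278.9, 514.2 and 532.1 with GA3, where replicate 1 was the lowest and the other arrays the highest of the mutant (difference -0.02 ± 0.21).

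EXPA20 ran the other way, with 228.7, 242.6 and 303.2 in ga-1 mock and 200.3, 180.0 and 172.2 with GA3. Its groups do not overlap either, and the difference was -0.48 ± 0.22 (SE; adjusted p = 0.63). In gid1 it had 174.5, 265.0 and 332.5 in mock and 234.0, 290.3 and 341.7 with GA3, which overlap.

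EXPA7 and EXPA18, alpha-expansins known for their role in root hairs, did not share a pattern. EXPA7 had 97.8, 139.9 and 114.2 in ga-1 mock and 104.5, 94.6 and 64.7 with GA3, which overlap, and a difference of -0.43 ± 0.33 (SE). In gid1 it had 42.9, 91.9 and 97.0 in mock and 101.5, 122.8 and 141.7 with GA3. The gid1 groups do not overlap, with a difference of 0.74 ± 0.33 (SE; adjusted p = 0.94). Without gid1 mock replicate 1, the lowest array at 42.9, it was 0.36. EXPA18 lay between 104.2 and 198.3 over all arrays, with differences of 0.01 in ga-1 and 0.10 in gid1. The remaining tested alpha-expansins, EXPA4, EXPA9 and EXPA16, had ga-1 differences from -0.13 for EXPA4 to -0.04 for EXPA9.

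The beta-expansins and expansin-like genes spread widely, and EXLA2 stood out by size. EXLA2 had 157.7, 111.2 and 160.3 in ga-1 mock and 305.6, 390.6 and 179.5 in ga-1 with GA3. All GA3 arrays lie above the mock arrays, replicate 3 by little. The means were 143 ± 27.6 and 292 ± 106 (SD, n = 3), a difference of 0.98 ± 0.25 (SE), or 1.97-fold, with a 95% interval from 0.44 to 1.51 (adjusted p = 0.11). Without ga-1 GA3 replicate 3 the difference was 1.29 and passed the threshold (adjusted p = 0.013), while leaving out any other single array gave no call. With single arrays left out it ran from 0.73 to 1.29. In gid1, EXLA2 had 211.7, 150.3 and 180.4 in mock and a narrow 153.5, 149.5 and 153.8 with GA3 (difference -0.23 ± 0.25).

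EXLA1, which belongs to the same small family, differed by 0.05 ± 0.19 (SE) in ga-1, with means of 3670 ± 517 in mock and 3808 ± 626 with GA3 (SD, n = 3). EXLB1 differed by -0.11 ± 0.20. EXPB1 and EXPB3 differed by 0.21 and 0.05. EXPB2 was the most variable tested gene, with a pooled SD between replicates of 1.16 on the log2 scale: its ga-1 GA3 arrays gave 7.0, 113.2 and 81.1. Replicate 1 was far below the other arrays, and the 95% interval of its response, from -1.85 to 1.33, allows a more than 2-fold change either way.

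**Figure D2:**
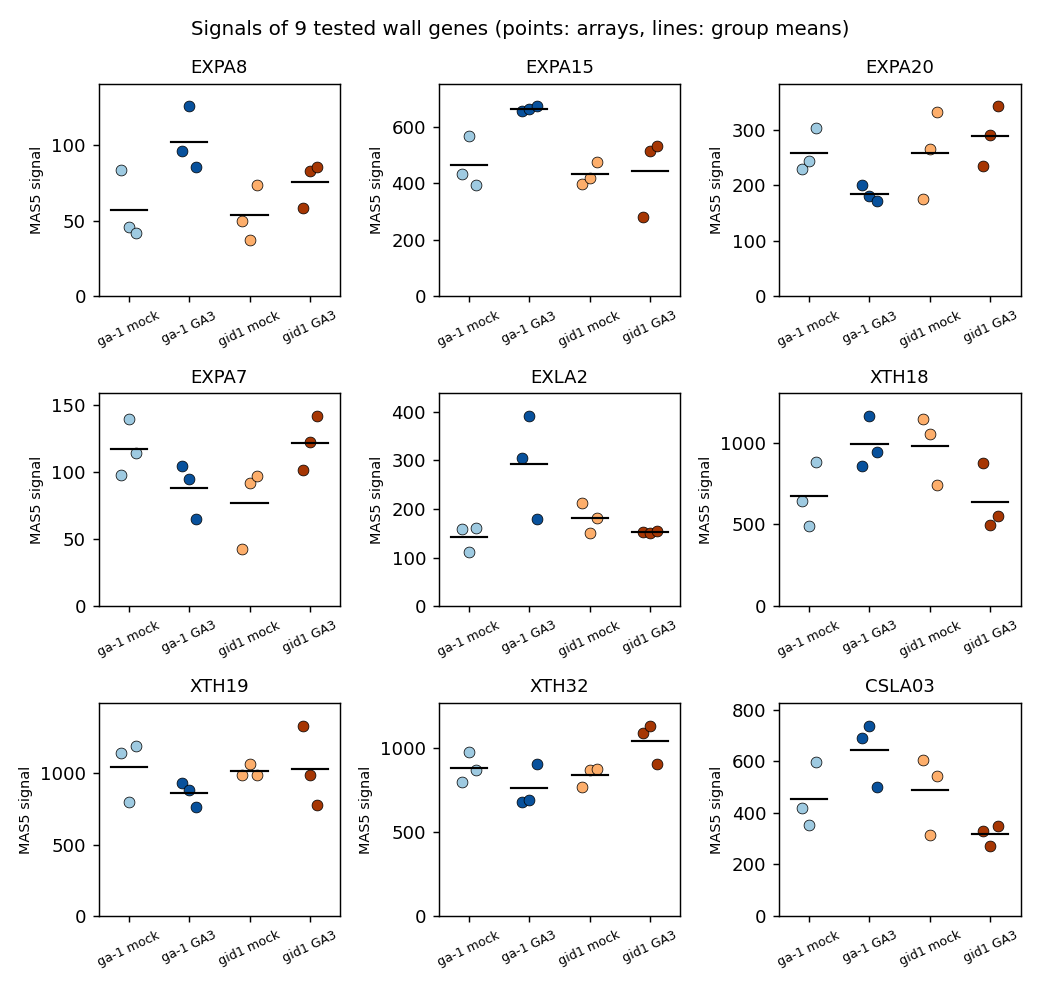
MAS5 signal (vertical axis, linear and starting at 0) of 9 tested wall genes in the 4 groups; points are arrays and lines are the means of 3 arrays. EXPA8, EXPA15 and EXLA2 have their ga-1 GA3 arrays above all ga-1 mock arrays, EXPA20 has them below, and the gid1 GA3 arrays of CSLA03 lie below all ga-1 GA3 arrays.

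Among the XTH genes the ga-1 differences ran from -0.35 for XTH20 to 0.59 for XTH18, and 4 of the 6 tested genes were on the lower side. XTH18 had 641.9, 490.9 and 883.1 in ga-1 mock and 860.6, 1162.2 and 945.3 with GA3. These groups overlap through 1 mock array, and the difference was 0.59 ± 0.23 (SE; adjusted p = 0.50). In gid1, XTH18 had 1144.5, 1052.3 and 738.7 in mock and 873.3, 495.6 and 549.8 with GA3, which is the opposite direction with overlap (difference -0.63 ± 0.23, adjusted p = 0.94).

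XTH19 is the next protein-coding gene to XTH18 in the TAIR10.1 gene table, with 0 genes between them, and is closely related in sequence. It had 1146.2, 797.5 and 1196.2 in ga-1 mock and 930.3, 887.1 and 762.5 with GA3. These values overlap, with a difference of -0.27 ± 0.18 (SE) in ga-1 and of -0.01 ± 0.18 in gid1. How far each probe set also binds transcripts of related XTH genes was not tested. The other tested XTH genes had ga-1 differences of 0.19 (XTH16), -0.22 (XTH32), -0.22 (XTH33) and -0.35 (XTH20), with 95% intervals that include 0.

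Of the CSL and GAUT genes, CSLA03, of the glucomannan synthase family, had 417.3, 352.2 and 596.9 in ga-1 mock and 691.9, 737.0 and 500.0 with GA3. Replicate 3 with GA3 lies within the mock values, and the difference was 0.51 ± 0.24 (SE; adjusted p = 0.63). The CSLC genes, which include the xyloglucan glucan synthase gene CSLC04, differed by -0.42 (CSLC12), -0.30 (CSLC04), -0.19 (CSLC5), 0.13 (CSLC6) and 0.08 (ATCSLC08). CSLC5 had 418.3, 432.3 and 463.5 in ga-1 mock and 380.5, 395.5 and 376.8 with GA3. Its groups do not overlap, though the difference of -0.19 ± 0.15 (SE) was small (adjusted p = 0.85). CSLD2, known for its part in root hair growth, differed by 0.27 ± 0.14, and GAUT15 by -0.30 ± 0.22.

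For most of the tested genes, taken 1 at a time, a large response was bounded rather than merely missed. The intervals are not adjusted for the number of genes, and the dim genes are not covered. In ga-1, the 95% interval of 19 of the 28 genes lay wholly within a 2-fold change either way, and 25 had a difference of less than 1.5-fold. The half-width of the interval ran from 0.30 to 1.59 with a median of 0.48 on the log2 scale. EXLA2, EXPA8, XTH18, CSLA03, EXPA7, EXPB1, EXPB2, CSLC12 and XTH20 are the 9 whose intervals reached 2-fold.

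**Figure D3:**
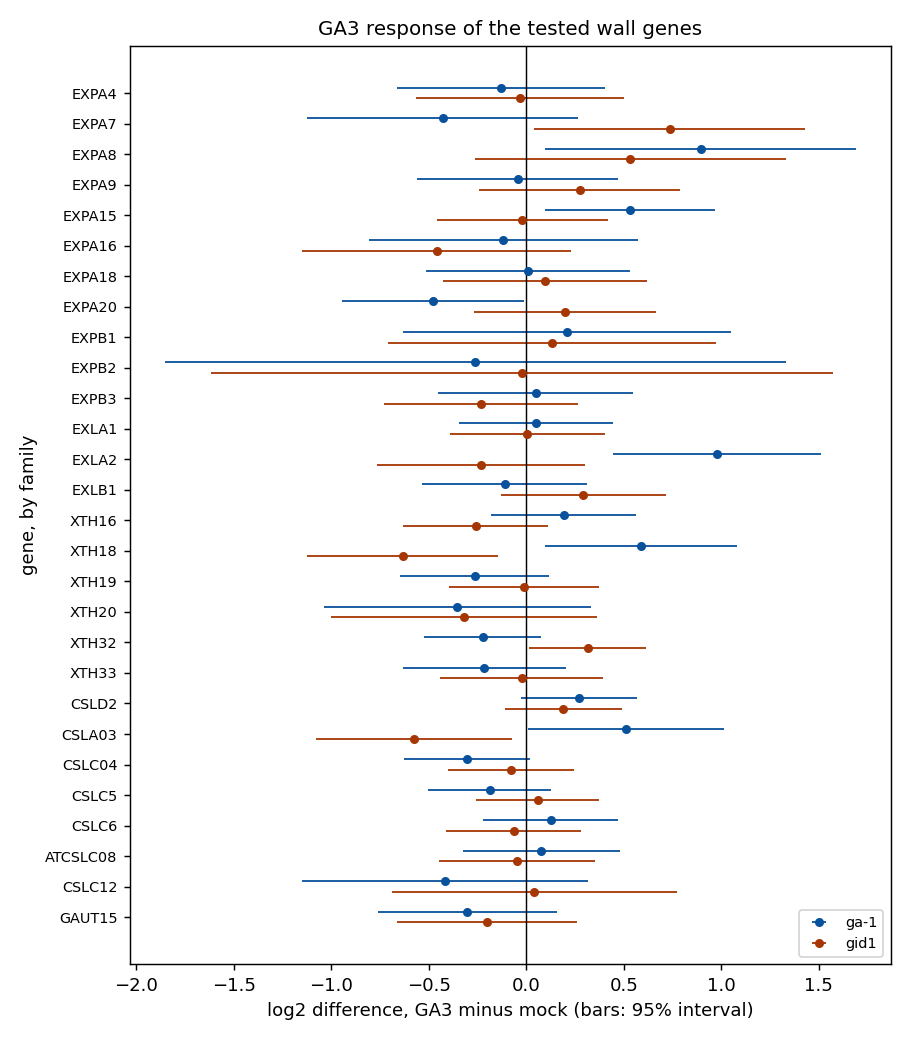
Difference between GA3 and mock on the log2 scale (horizontal axis) for the 28 tested wall genes in ga-1 and in gid1; points are limma estimates and bars their 95% intervals, which are not adjusted for the number of genes. EXLA2 has the largest estimate in ga-1, 0.98, and XTH18 and CSLA03 lie above 0 in ga-1 and below 0 in gid1.

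The second comparison asked whether the wall genes responded to GA3 without the GID1 receptors. None of the 28 was called, and limma called none of the 15922 probe sets (0%) either, with 5.26% of all at an unadjusted p under 0.05. Of the wall genes, 4 (14.3%) had such a p: EXPA7 and XTH32 on the higher side and XTH18 and CSLA03 on the lower. Each had an adjusted p of 0.94. The groups did not overlap for EXPA7, EXLB1 and XTH32, which are 3 of the 28 (10.7%), against 9.1% of all probe sets. All 3 were higher with GA3, against 4.74% of all. XTH32 had 768.1, 873.7 and 874.8 in gid1 mock and 1094.1, 1133.0 and 909.3 with GA3, so that replicate 3 with GA3 was just above the mock arrays (difference 0.31 ± 0.14). EXLB1 had 292.7, 228.1 and 260.1 in gid1 mock and 331.8, 323.0 and 297.9 with GA3 (difference 0.29 ± 0.20). The seed-marker signal was also higher in every gid1 array with GA3 than in every gid1 mock array. A fit with the seed-marker mean as a term, added after the data were seen, also called none of the 28, but the sizes moved. In gid1 the difference went from -0.63 to -0.25 for XTH18, from 0.31 to 0.14 for XTH32, from 0.29 to 0.14 for EXLB1 and from -0.46 to -1.01 for EXPA16. It went from 0.74 to 0.57 for EXPA7 and from -0.58 to -0.69 for CSLA03. The seed-marker mean was 6.36 to 7.07 in gid1 with GA3 and 4.46 to 5.34 in gid1 mock, so it cannot be told apart from the treatment there. Within groups it varied most in ga-1 mock (4.50, 6.65 and 5.87), so the slope of this term rests mainly on those arrays. The moved sizes are therefore not corrected responses, here or wherever this term is used below.

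Within gid1 with GA3, the family means of replicate 1 differed from those of replicates 2 and 3, in opposite directions for alpha-expansins and XTH genes. Over all tested probe sets its mean correlation with its group was 0.970, against 0.971 and 0.970 for replicates 2 and 3. The mean deviation of the 8 tested alpha-expansins from their own 12-array means was -0.44 in replicate 1 and 0.24 and 0.33 in replicates 2 and 3. EXPA16 illustrates it with 77.9 in replicate 1 against 182.6 and 273.3. EXPA4 had 677.4 there, against 1308.0 and 1396.9, and EXPB3 had 178.7 against 370.9 and 330.9. The 6 tested XTH genes had a mean deviation of 0.17 in replicate 1 and of -0.22 in both replicates 2 and 3. Such a spread was not particular to this group, as the XTH values in ga-1 mock were 0.06, -0.22 and 0.27. Nor did every XTH gene follow, since XTH20 was lowest in replicate 1 (62.9, against 70.2 and 76.0). Among the expansin-like genes EXLA1 (4246.3) and EXLB1 (331.8) were highest in replicate 1. Without that array the gid1 difference of EXPA16 went from -0.46 to 0.05.

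The third comparison tested the difference of the responses, ga-1 minus gid1, in which the arrays of both mutants enter. None of the 28 genes was called, against 35 of all 15922 probe sets (0.22%), and 6 (21.4%) had an unadjusted p under 0.05, against 6.53% of all. The largest were XTH18, with 1.22 ± 0.33 (SE; 95% interval 0.53 to 1.92, adjusted p = 0.24), EXLA2, with 1.21 ± 0.36 (0.45 to 1.97, adjusted p = 0.34), and CSLA03, with 1.09 ± 0.34 (0.38 to 1.80, adjusted p = 0.38). On the negative side were EXPA7 (-1.17 ± 0.46, adjusted p = 0.63), EXPA20 (-0.68 ± 0.31, adjusted p = 0.75) and XTH32 (-0.54 ± 0.20, adjusted p = 0.59). For XTH18 and CSLA03 both mutants contribute, with opposite signs, while most of the EXLA2 value lies in ga-1. Without ga-1 GA3 replicate 3 the EXLA2 difference was 1.53 and was called (adjusted p = 0.043). With the seed-marker mean as a term the difference of responses was 0.73 for XTH18, 0.92 for EXLA2, 1.24 for CSLA03 and -0.31 for XTH32. The responses in ga-1 and gid1, which share no array, had the same sign for 13 of the 28 genes (46.4%) and for 49.6% of all tested probe sets.

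The fourth comparison set gid1 against ga-1 without GA3. None of the 28 genes was called, against 3 of all probe sets (0.0188%), and 1 had an unadjusted p under 0.05 (3.57%, against 4.58% of all). That gene was XTH18, with mock means of 672 ± 198 in ga-1 and 979 ± 213 in gid1 (SD, n = 3), a difference of 0.56 ± 0.23 with overlapping arrays (adjusted p = 0.99). The groups did not overlap for 3 of the 28 (10.7%, against 11% of all), each of them lower in gid1, against 6.03% of all. These were CSLC12 (-0.38), EXPA7 (-0.68) and EXPB3 (-0.35), all with an adjusted p of 0.99. Without gid1 mock replicate 1 the EXPA7 difference was -0.30. The median difference was -0.04 over the wall genes and -0.01 over all tested probe sets. In 23 of the 28 genes the 95% interval, not adjusted for the number of genes, lay within a 2-fold change either way. Taken 1 at a time, this bounds the difference between the mock mutants for these genes.

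The fifth comparison set the GA3-treated mutants side by side: ga-1, which can perceive the added hormone, against gid1. It gave the one call among the wall genes. CSLA03 was lower in gid1, with 328.1, 271.6 and 350.9 against 691.9, 737.0 and 500.0 in ga-1, and no overlap. The means were 317 ± 40.8 and 643 ± 126 (SD, n = 3), a difference of -1.01 ± 0.24 (SE; 95% interval -1.51 to -0.51), or 0.497 times the ga-1 level (limma adjusted p = 0.048). Of all probe sets 201 (1.26%) were called, and 0.352% were called lower. In mock the CSLA03 difference was 0.08 ± 0.24 (95% interval -0.42 to 0.58). The call was narrow: it was lost without ga-1 mock replicate 1 (adjusted p = 0.068), ga-1 GA3 replicate 1 (0.19) or 2 (0.21), gid1 mock replicate 3 (0.057) and gid1 GA3 replicate 1 (0.084), 2 (0.21) or 3 (0.093). It was also lost with no low-value filter (0.067), no intensity trend (0.16) and array weights (0.069). The fit with the seed-marker mean as a term gave -1.12 and no call (adjusted p = 0.40).

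In this comparison 10 of the 28 genes (35.7%) had an unadjusted p under 0.05, against 10.8% of all tested probe sets. Of these 6 were lower in gid1, against 5.12% of all, and 4 higher, against 5.7%. For 8 (28.6%) the groups did not overlap, against 13.7%. The arrays of ga-1 with GA3 also enter the first comparison, so the values are given side by side and are not independent of it. EXLA2 had a gid1 minus ga-1 difference of -0.87 ± 0.25 (adjusted p = 0.14), EXPA15 of -0.64 ± 0.21 (adjusted p = 0.20) and XTH18 of -0.66 ± 0.23 (adjusted p = 0.25). XTH16 (-0.50, adjusted p = 0.26) and EXPB3 (-0.63, adjusted p = 0.29) were the others on the lower side in gid1. With the seed-marker mean as a term the difference was -0.66 for EXLA2, -1.04 for EXPA15 and -0.31 for XTH18.

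On the higher side in gid1 were XTH32, EXPA20, CSLC04 and CSLC5, none of which was called. XTH32 had 1094.1, 1133.0 and 909.3 in gid1 against 680.0, 693.9 and 908.9 in ga-1. These groups are separated by a margin of under 1 signal unit between the nearest arrays, and the difference was 0.46 ± 0.14 (adjusted p = 0.17). Without ga-1 GA3 replicate 3, the array at that margin, it was 0.60 and was called (adjusted p = 0.046), as was EXLA2 (-1.18, adjusted p = 0.014). CSLC04 had 1540.5, 1480.8 and 1470.0 in gid1 against 1399.1, 1184.8 and 880.1 in ga-1 (difference 0.40 ± 0.15, adjusted p = 0.31). Its gid1 arrays lie close together and the ga-1 arrays are spread below them. CSLC5 differed by 0.36 ± 0.15 (adjusted p = 0.37) and EXPA20 by 0.63 ± 0.22 (adjusted p = 0.24).

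**Figure D4:**
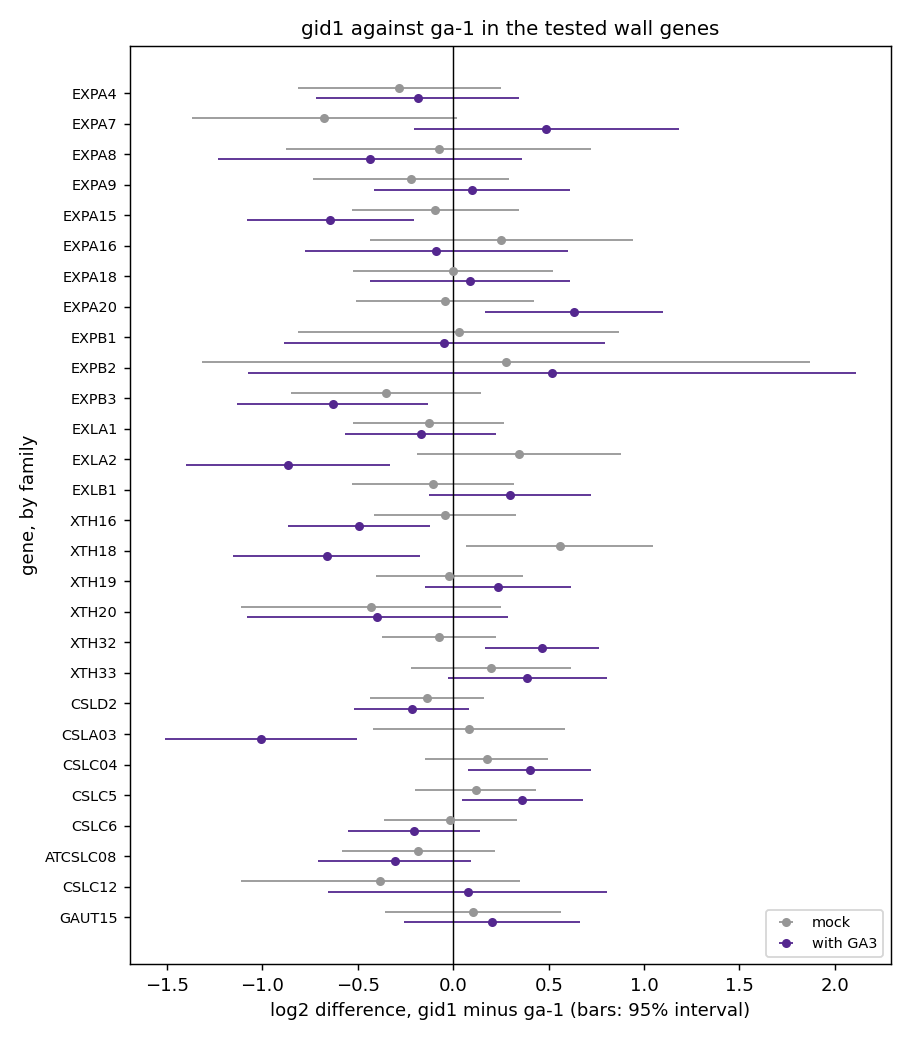
Difference between gid1 and ga-1 on the log2 scale (horizontal axis) for the 28 tested wall genes, in mock and with GA3; points are limma estimates and bars their 95% intervals, which are not adjusted for the number of genes. CSLA03 lies at 0.08 in mock and at -1.01 with GA3, where it was called.

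The spread between replicates is given here by family, as a description. The median SD within groups was 0.18 on the log2 scale over the 7 tested CSL genes, 0.27 over the 6 XTH genes and 0.36 over the 14 tested expansin and expansin-like genes, against 0.22 over all tested probe sets. The steadiest genes over all 12 arrays were CSLC6 (SD 0.17), ATCSLC08 (0.19), CSLC5 and CSLD2 (0.20 each) and XTH32 (0.23). The most variable were EXPB2 (1.02), EXPA8 (0.54), EXLA2 (0.49), CSLA03 (0.49) and EXPA7 (0.48). Median GA3 differences in ga-1 were -0.08 for EXPA, 0.05 for EXPB, -0.22 for XTH and 0.08 for CSL. In gid1 they were 0.15, -0.02, -0.14 and -0.05 in the same order. With no low-value filter the XTH median in ga-1 was 0.19. Without gid1 GA3 replicate 1 the median of the expansin and expansin-like genes in gid1 went from 0.05 to 0.29. No family median was tested, since its genes are not replicates.

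The 9 genes below the low-value limit were EXPA21, EXPA24, EXPB5, EXLA3, XTH21, XTH26, XTH29, CSLA01 and PME61. Their signals lay between 1.2 and 89.8, and their median SD within groups was 1.03 on the log2 scale, so no fold changes are given. XTH26, an XTH gene known from root hairs, stayed between 1.2 and 8.0. XTH29 had 3.3, 15.8 and 2.0 in ga-1 mock and 16.4, 60.1 and 22.5 with GA3, which do not overlap but hang on a gap of under 1 signal unit. EXPB5 had 37.1, 28.3 and 37.9 in gid1 mock and 63.0, 59.7 and 68.5 with GA3, also without overlap. EXPA21 had 2.7, 1.8 and 2.8 in gid1 mock and 8.8, 5.7 and 10.4 with GA3. EXPA21 and EXPA24 have 4 protein-coding genes between them, and EXLA3 lies next to EXLA1. The bright EXLA1, at 2309.1 to 4304.4, and the dim EXLA3, at 13.1 to 72.8, were read by different probe sets, so their levels are not compared.

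**Figure D5:**
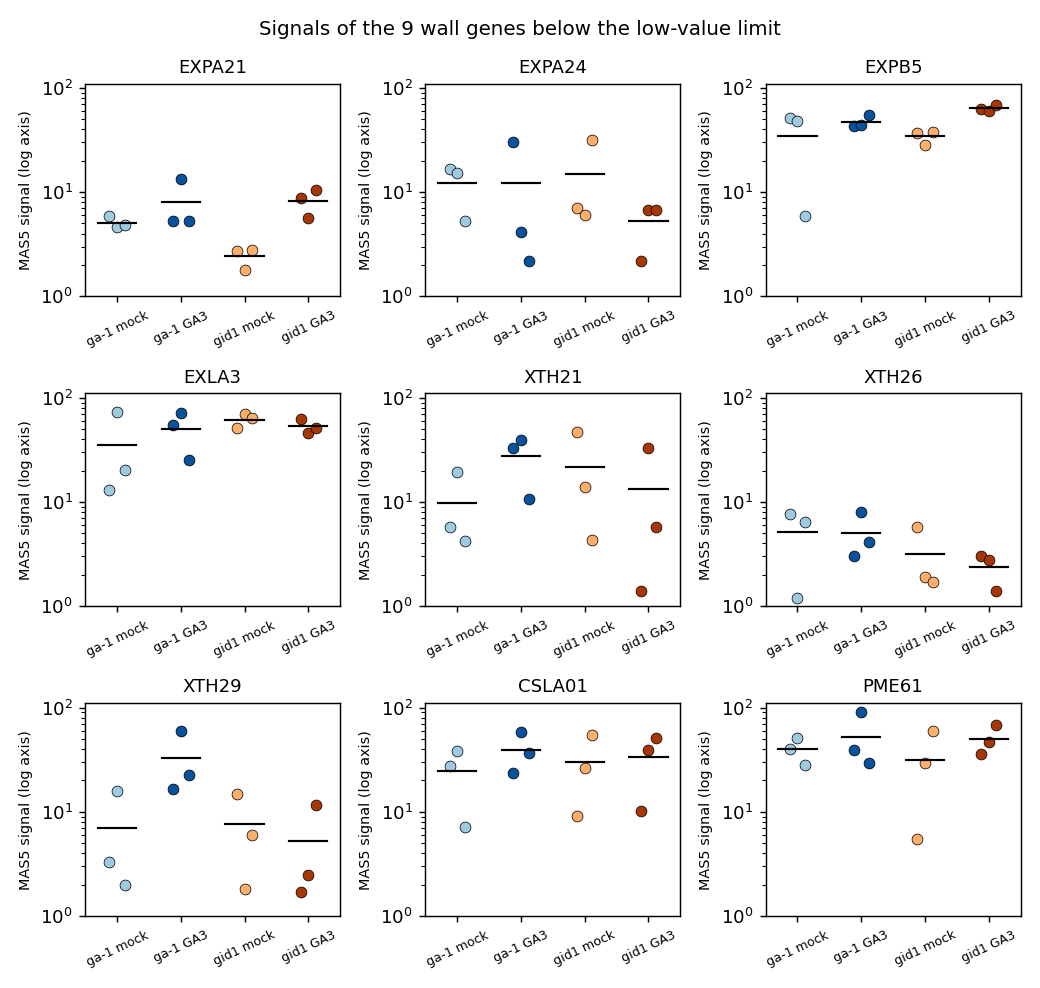
MAS5 signal (vertical axis, logarithmic) of the 9 wall genes below the low-value limit in the 4 groups; points are arrays and lines are the means of 3 arrays. Replicates of 1 group often differ several-fold, as for XTH21 and XTH29.

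Other genes of the wall were taken from a list of 55 loci for cellulose, xyloglucan, pectin, wall proteins and wall sensors, chosen with earlier results of these data known. The names table covers 8 of them, and 7 passed the low-value limit. In ga-1, 1 rose with GA3 and 1 fell, both from the pectin group, against 0.81% of all probe sets called. Since these genes' results were known when the list was made, nothing is read from that count. AT5G48900, a pectate lyase-family gene, went from 374 ± 64.3 to 666 ± 72.3 (SD, n = 3), a difference of 0.84 (adjusted p = 0.031), and AT5G19730, a pectin methylesterase-family gene, from 287 ± 20.3 to 135 ± 25.9, a difference of -1.11 (adjusted p = 0.0056). With GA3 in both mutants 3 were called, against 1.26% of all probe sets, and nothing is read from that count either. AT5G19730 (287 ± 32.1 in gid1, adjusted p = 0.0044) and the XTH-type gene EXGT-A3 (0.59, adjusted p = 0.032) were higher in gid1 and AT5G48900 (-0.76, adjusted p = 0.044) was lower. EXGT-A3 had means of 3335 and 2411 in ga-1 mock and with GA3 and of 3443 and 3595 in the gid1 groups. None of the 7 was called in gid1, in the difference of responses or between the mock mutants. COB, which is needed for oriented cellulose deposition, and the receptor kinases THE1 and FER had ga-1 differences of 0.00, 0.37 and 0.08. EXO, from the wall proteins group, had a ga-1 difference of 0.42 (limma adjusted p = 0.67). Its gid1 minus ga-1 difference with GA3 was -0.47 (limma adjusted p = 0.41).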

How the data were processed

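The authors deposited linear intensities, named MAS5 in the submitters' processing notes (version not given in the sources used here). The mean without the lowest and highest 2% was 500.05 on all 12 arrays. Groups follow the sample titles; a free-text description that names GA3 for mock samples too was not followed. Columns were matched by accession.

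Signals were floored at 1 and taken to log2. After removal of 64 control probe sets, those whose mean log2 signal fell under the 30th percentile went untested. Group means of the 4 groups were fitted with limma 3.58.1 (R 4.3.3; lmFit, then eBayes with trend) and p-values were Benjamini-Hochberg adjusted. The fit was tested on simulated data. Intervals are limma's 95% intervals.

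Members, lists and tests were chosen with earlier results of these data known, so list counts are descriptions. Genes named are every call, the 5 smallest p each way per comparison, the 2 smallest per family in ga-1, EXPA7, EXPA8 and EXPA18, and the 5 most and least variable; values of other members are given to complete the families, and the dim genes shown were chosen after seeing their values. All 37 symbols matched the TAIR10.1 gene table. Of the 22 seed markers, chosen in the same way, 4 were tested. Alternatives were other scalings, low-value filters, log2(value + 32), no trend, array weights, the replicate block, the compared groups alone, stricter thresholds, other symbol rules and each array left out. Replicates with the same number in different groups did not deviate together, with correlations from -0.12 to 0.10 over 12 pairs.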

Additional observations from a re-analysis of the deposited data

How the results depend on the processing

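For gid1 against ga-1 with GA3, the one comparison with a called wall gene, the count moved under 13 of 26 alternatives. The counts of 0 in the other comparisons could not be lowered by stricter settings, so that they stayed at 0 there says nothing about stability. The count of 1 became 0 with no low-value filter, no intensity trend, array weights, an adjusted p under 0.01 and the seed-marker covariate (chosen after seeing the data). With each array left out in turn it ran from 0 to 3, and it was 3 without ga-1 GA3 replicate 3, namely CSLA03, EXLA2 and XTH32. The count ran from 0 to 1 for the GA3 response in ga-1 and for the difference of responses, where EXLA2 was called without that same array, and stayed at 0 for the GA3 response in gid1 and between the mock mutants. The cause was not tested. With the replicate block the counts were 0, 0, 0, 0 and 1 in the order of the comparisons. The replicate numbers did not pair the arrays, and with the block all calls went from 129 to 107 in ga-1 and from 201 to 178 with GA3. All calls in ga-1 were 60 without the trend, 57 at an adjusted p under 0.01, 67 at 2-fold or more and 66 to 130 with an array left out. For the difference of responses they were 12 without the trend, 7 with the seed-marker covariate and 17 to 64 with an array left out, against 35. With GA3 they were 110, 33 and 124 to 287, against 201, and 99 at an adjusted p under 0.01 and 109 at 2-fold or more. In gid1 they were 5 in the fit of its groups alone and 0 to 2 with an array left out, and between the mock mutants 0 to 4 under other settings and 2 to 5 with an array left out, against 3.

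Of 1168 values of named genes under alternatives, 1143 kept their direction and side of the threshold, and 10 turned in sign, none of them called. Only CSLA03 in the fifth comparison was called in the reported fit, so the other named differences had no call to lose. Settings that change only the p-values also leave sizes and signs as they are, so this total says little about stability. The CSLA03 call was lost under 11 of the 22 alternatives in this tally. With single arrays left out, the ga-1 difference ran from -0.046 to 0.19 for EXLA1, from -0.29 to 0.14 for EXLB1, from -0.018 to 0.43 for EXPB1 and from -1.01 to 1.00 for EXPB2. The gid1 difference of EXPA16 ran from -0.86 to 0.047 and the mock difference of CSLC5 from -0.030 to 0.23. With log2(value + 32) EXPB2 was at 0.10 in ga-1. With the seed-marker covariate XTH20 was at 0.12 in gid1 and EXLA1 at -0.047 in ga-1. Of 900 values of family medians under alternatives, 28 moved by more than 1 SD between replicates. The groupings included all wall genes together, all expansin and expansin-like genes together and families with 1 tested gene. Settings such as no trend leave the medians as they are, so this count says little about stability either. Signals near the low-value limit, as for EXPB2, EXPB1 and EXPA8, gave the widest intervals.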
